A study of Mus musculus with 4 samples.

Results

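Genes of bone morphogenetic protein (BMP) signalling were followed in mouse colonic organoids with and without butyrate. The 10 genes were the target genes *Id1*, *Id2*, *Id3* and *Id4*, the intracellular inhibitors *Smad6* and *Smad7*, the pseudoreceptor *Bambi*, the ligands *Bmp2* and *Bmp4*, and the receptor *Bmpr1a*. The rule took every row of the count table with one of these 10 symbols, out of 36144 rows. All 10 had over 10 counts in 2 or more libraries, the filter that 13979 rows passed. *Bmp4* passed it only through the butyrate libraries, so its presence among the tested genes already depended on the treatment.

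Bulk RNA was sequenced from cultures at passage 3, either left untreated or given 2 mM sodium butyrate, and collected at day 2 (48 h) or day 3 (72 h), and each of these 4 conditions had 1 library. The labels describe wild-type organoids from a male mouse aged 24 weeks, whereas the study's methods describe organoids of a Hes1-GFP reporter mouse, in which a fluorescent protein reports the Notch effector Hes1. All 4 cultures, untreated included, grew in crypt medium that held 200 ng/ml of Noggin, a secreted protein that binds BMP ligands and keeps them from their receptors. The medium also held EGF, R-spondin and 3 µM CHIR99021, which activates Wnt signalling, so the BMP pathway was read in cultures in which its ligands were antagonised.

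BMP ligands bind a receptor complex of type I and type II serine/threonine kinases, to which Bmpr1a belongs as a type I receptor. The activated receptor phosphorylates Smad1, Smad5 and Smad9, which enter the nucleus with Smad4 and switch on target genes. The *Id* genes are the best known of these, and their products are helix-loop-helix proteins without a DNA-binding region that capture E proteins and block their partnership with lineage factors. Smad6, Smad7 and Bambi are themselves induced by the pathway and dampen it. In the colon, BMP signalling is strongest towards the crypt top and is held low at the base by antagonists from the surrounding mesenchyme, where it would otherwise restrain stem cells.

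Total counts were between 20790225 and 24207840 per library, and 14.1% to 18.4% of them came from genes of the mitochondrial genome. The general epithelial genes *Epcam*, *Cdh1*, *Krt8* and *Krt19* each had at least 24464 counts in every library. The intestinal genes *Cdx1*, *Cdx2* and *Vil1* each had at least 2706, and no gene that tells colon from small intestine was among the markers. Of the 9 epithelial markers, 5 were higher and 3 lower with butyrate at 48 h (median log2 fold change 0.074), and 1 was higher and 8 lower at 72 h (median −0.17), beside the decreases at 72 h described below. By the interval rule given below, 29.3% of all tested genes were higher and 31.3% lower at 48 h, and 25.9% and 26.4% at 72 h. The collagen gene *Col3a1* and *Lum* had no count, *Col1a2* had at most 2, and the summed normalised counts of 12 fibroblast and smooth muscle markers were 321 and 392 in the untreated and 331 and 370.5 in the butyrate libraries. Most of that sum came from *Thy1*, *Vim* and *Pdgfrb*. Among immune markers, *Cd68*, which also marks lysosomes, had 128 counts untreated against 1309 treated at 48 h, and 172 against 420 at 72 h, while *Ptprc*, which marks all leukocytes, had at most 15. *Itgam* had 48 counts untreated against 36 treated at 48 h, and 41 against 43 at 72 h. *Csf1r* had 1 against 2 counts at 48 h, and 0 against 16 at 72 h. *Cd79a*, *Cd3e* and *Lyz2* had at most 5. Of 5 endothelial markers, *Cdh5* and *Emcn* had at most 1 count, *Kdr* at most 8 and *Tek* at most 12. *Pecam1* had 20 counts untreated against 37 treated at 48 h, and 45 against 23 at 72 h, where its interval was −1.63 to −0.084. The part of other cell types in the results below was not tested.

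Fold changes are given as log2 of butyrate over untreated normalised counts after adding 1, with an exact 95% interval on the pair of counts. With a single library per condition there was no replicate error and no p-value was computed, so each interval covers counting error only and says nothing on the spread between cultures. "Lower" and "higher" are used of values whose interval excluded 0. The design compares butyrate with untreated cultures at each time, which addresses how butyrate alters gene programmes of the colonic epithelium.

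At 48 h, 6 of the 10 genes were lower with butyrate and none was higher. They were *Id2*, *Id4*, *Bambi*, *Bmp2*, *Smad7* and *Bmpr1a*. Over all tested genes, 31.3% were lower and 29.3% higher by the same rule. At 72 h, 5 of the 10 genes were lower, against 26.4% of all tested genes. Only *Bmp4* had an interval above 0 at 72 h. It passed the filter only through the butyrate libraries, so this is not set against a share. *Id2*, *Id4*, *Bambi*, *Bmp2* and *Smad7* were lower at both times, which held for 13.6% of all tested genes. In these 5 genes both butyrate libraries lay below both untreated libraries, as they did in 21.7% of tested genes. In *Bmp4* both lay above, as in 21.8% of tested genes, but the way it passed the filter had largely fixed that order. *Id1*, *Id3*, *Smad6* and *Bmpr1a* overlapped between treatments. In bulk RNA, fewer cells that express a gene and less RNA per cell cannot be told apart.

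A change of at least 2-fold was less common. At 48 h, *Id4*, *Bambi* and *Id2* were at least 2-fold lower, as were 3.08% of tested genes. *Bmp4* was above a 2-fold increase in value, as were 6.94% of tested genes, although its interval at 48 h held 0. At 72 h, *Id4* and *Bmp2* were at least 2-fold lower, as were 3.78% of tested genes, and *Bmp4* was at least 2-fold higher, as were 4.53%. Both time points together left *Id4* alone on the lower side (0.887% of tested genes) and *Bmp4* alone on the higher side (2.55%). *Bmp4* passed the filter only through the butyrate libraries, a selection that favoured the higher side. Nothing is therefore read from *Bmp4* against the shares of 6.94%, 4.53% and 2.55%. With a pseudocount of 5, *Bmp4* stood at 0.88 at 48 h and was no longer past 2-fold at both times, and it was not tested at a mean normalised count of 50 or more. The median log2 fold change of the 10 genes was −0.22 at 48 h and −0.25 at 72 h, where that of all tested genes was −0.011 and 0.0022.

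**Figure D1:**
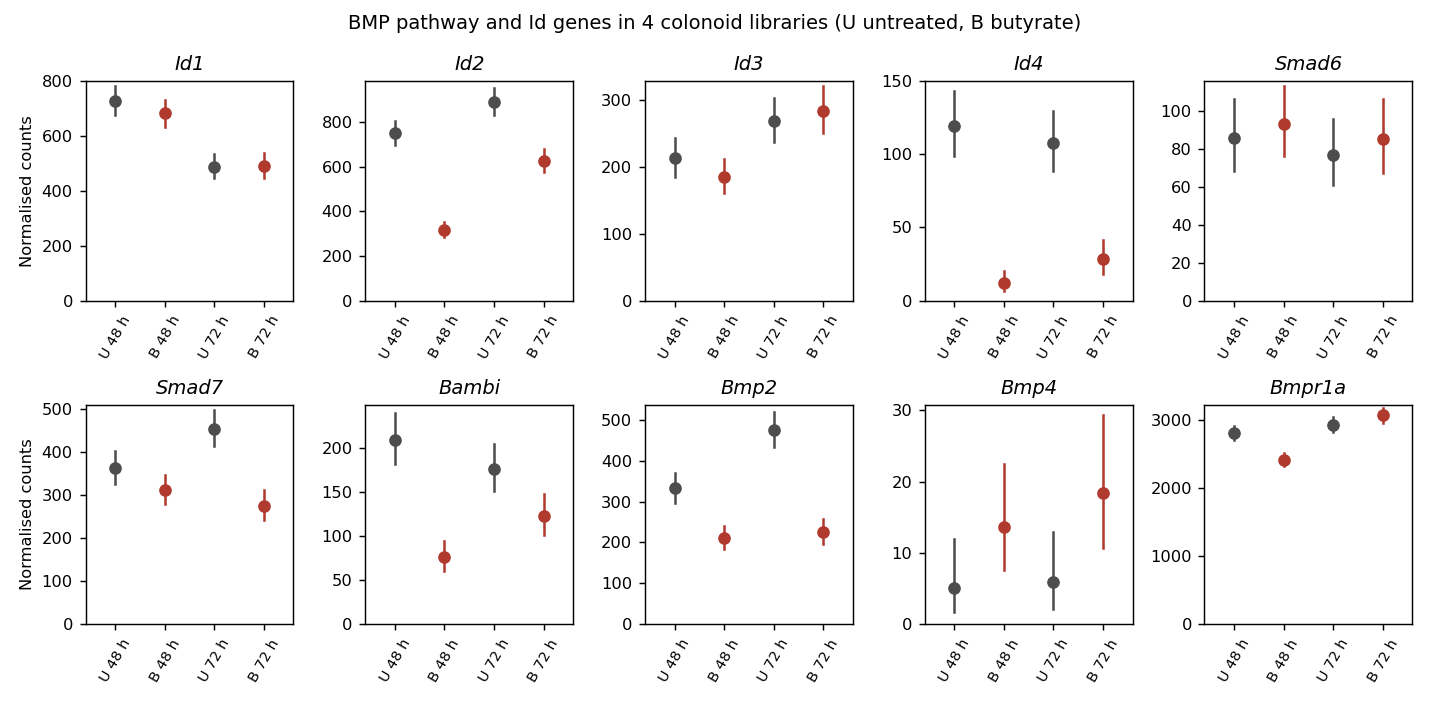
Normalised counts (counts divided by the library's size factor) of each of the 10 genes in the 4 libraries, with untreated (U) in grey, butyrate (B) in red and vertical lines for the exact 95% Poisson interval. *Id4* stands at 120 and 108 untreated and 11.8 and 28.1 with butyrate, whereas the points of *Id1* pair by time and not by treatment.

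*Id4*, an Id protein that is also known to interfere with the other Id proteins, had the largest decrease of the 10 genes. It gave 117 counts untreated against 13 treated at 48 h, and 109 against 26 at 72 h. The butyrate libraries were thus far below the untreated ones at both times, and the untreated libraries were close to each other. The log2 fold change came to −3.24 (−4.29 to −2.51) at 48 h, a 9.43-fold decrease, and −1.90 (−2.62 to −1.31) at 72 h, a 3.74-fold decrease. Of the 13979 tested genes, 18 had a change at or below that of *Id4* at 48 h and 137 at 72 h. Only 4 did so at both times. Beside *Id4* these were *Gm18588*, *Gm48836* and *Gm49378*, named after their values were seen, each with 2 or fewer counts in either butyrate library. *Id4* lies on chromosome 13 from 48261228 to 48266026 on the plus strand of GRCm38. The annotation places the RNAs *A330033J07Rik* and *Gm49291* on the opposite strand over its exons, and these had no row in the table. Whether the libraries kept strand is not given in the sources used here, so their reads could not be told apart from those of *Id4* if they were present.

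*Id2*, a broadly expressed Id protein found in stem and progenitor cells, was lower to a smaller extent. It gave 734 counts untreated against 350 treated at 48 h, and 904 against 582 at 72 h. Both butyrate libraries were below both untreated libraries, and the gap was wider at 48 h. The log2 fold change came to −1.24 (−1.43 to −1.06) at 48 h and −0.51 (−0.66 to −0.35) at 72 h, decreases of 2.36-fold and 1.42-fold. At 48 h only 2.00% of tested genes had a change as low or lower, and at 72 h 10.3% did. The gene lies on chromosome 12 from 25093799 to 25097140 on the minus strand.

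*Id1* and *Id3*, the Id genes most often used as readouts of BMP activity in epithelia, did not follow *Id2* and *Id4*. *Id1* had 712 counts untreated against 752 treated at 48 h, and 494 against 454 at 72 h. Its level separated the time points and not the treatments, with log2 fold changes of −0.09 (−0.24 to 0.06) at 48 h and 0.01 (−0.18 to 0.19) at 72 h. *Id3* had 208 counts against 204 at 48 h, and 272 against 263 at 72 h. Its log2 fold changes were −0.20 (−0.49 to 0.09) and 0.08 (−0.17 to 0.33), and at this depth no difference could be detected at either time. For *Id1*, counting error alone left room for a decrease of 0.24 or an increase of 0.19 on the log2 scale. *Id1* lies on chromosome 2 from 152736251 to 152737410 and *Id3* on chromosome 4 from 136143497 to 136145755, both on the plus strand.

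**Figure D2:**
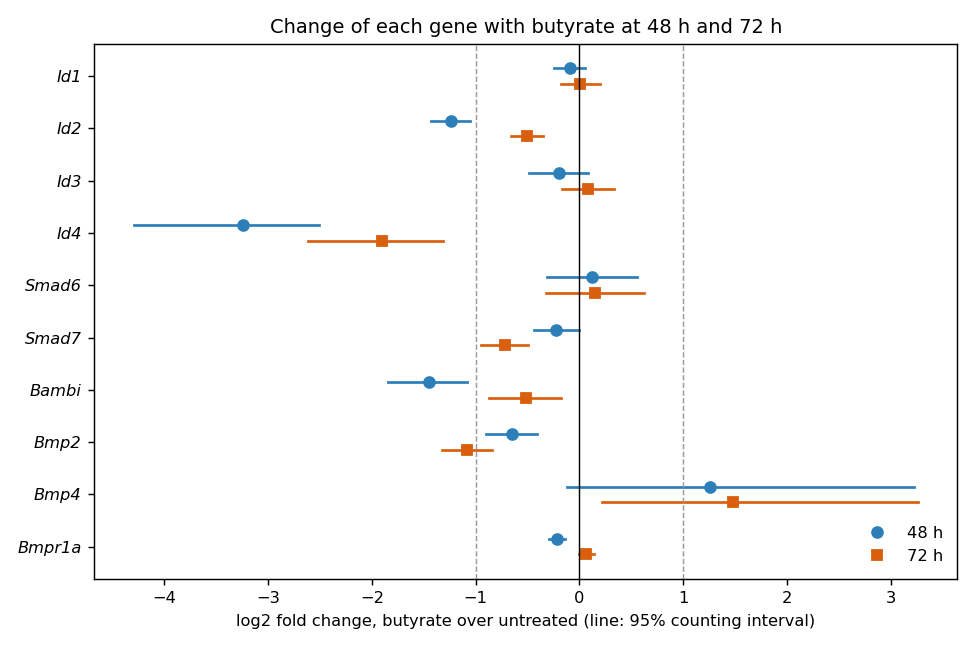
log2 fold change of butyrate over untreated for each gene at 48 h (blue circles) and 72 h (orange squares), with horizontal lines for the exact 95% counting interval and dashed lines at a 2-fold change. *Id4* lies at or below −1.90 at both times, the intervals of *Id1*, *Id3* and *Smad6* cross 0 at both times, and the interval of *Bmp4* is the widest.

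The start regions of the Id genes that were lower are shown because they are where regulators of transcription would act. RefSeq windows of 250 bases before to 50 bases after the start were given for *Id2*, *Id3*, *Id4*, *Smad6*, *Bmp4* and *Bmpr1a*, in GRCm38.p6, and not for *Id1*, *Smad7*, *Bambi* and *Bmp2*. Each was searched on both strands for GGCGCC, a GC-rich element to which BMP Smads bind, and for CAGAC, the general Smad-binding letters. GGCGCC was held by 11.9% of all 32851 windows and CAGAC by 49.6%. The *Id2*, *Id4* and *Bmpr1a* windows each held GGCGCC 1 time and no CAGAC. The *Id3* window held CAGAC 2 times and no GGCGCC, and those of *Smad6* and *Bmp4* held neither. The *Bmpr1a* window had 48 CpG dinucleotides, more than 98.8% of all windows, and the *Id4* window 39, more than 95.6%. The *Smad6* window had 31, the *Id2* window 21, the *Id3* window 19 and the *Bmp4* window 12, against a median of 7. The motif shares are over all windows and were not matched for base composition. A match is a description of the letters and does not show that a factor binds there. In the sequences below, which run 5′ to 3′ on the gene's strand and leave out annotated exons of the gene, capitals mark GGCGCC. The *Id4* stretch covers chr13:48260866-48261115 on the plus strand and ends at the base before the RefSeq start. The *Id2* stretch covers chr12:25096254-25096342 on the minus strand, which is intronic in the longest of its annotated transcripts.
Id4: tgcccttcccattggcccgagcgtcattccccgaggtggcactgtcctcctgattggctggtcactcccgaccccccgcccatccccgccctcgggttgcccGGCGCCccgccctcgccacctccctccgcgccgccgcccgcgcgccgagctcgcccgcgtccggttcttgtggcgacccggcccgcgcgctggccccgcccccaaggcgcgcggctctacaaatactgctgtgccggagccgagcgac
Id2: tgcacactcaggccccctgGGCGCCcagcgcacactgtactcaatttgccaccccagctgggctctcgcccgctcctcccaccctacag

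Levels of different genes were compared as counts scaled to the library total (CPM) per kb of annotated exon. On this scale, *Id1* was the most abundant of the Id genes in every library, and *Id4* the least. *Id1* stood at 28.5 untreated against 26.8 treated at 48 h, and at 18.1 against 18.8 at 72 h. For *Id2* these values were 14.0 against 5.93, and 15.7 against 11.5. For *Id4* they were 1.41 against 0.14, and 1.20 against 0.32. The treated level was lower in both genes at both times. The 4 Id genes summed to 49.2 untreated against 37.6 treated at 48 h, and to 41.4 against 37.7 at 72 h. *Id2* made up 28.4% of that sum untreated against 15.8% treated at 48 h, and 38.0% against 30.5% at 72 h. The share of *Id1* was 57.8% against 71.3%, and 43.6% against 49.9%, and that of *Id4* 2.86% against 0.37%, and 2.90% against 0.86%.

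**Figure D3:**
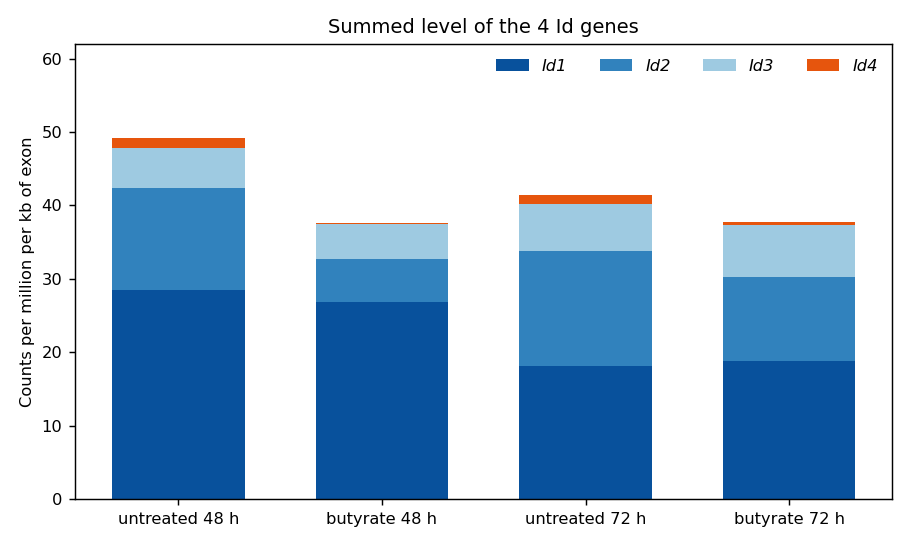
Level of each *Id* gene in CPM per kb of annotated exon, stacked for each library, with the axis starting at 0. The stacks reach 49.2 and 37.6 at 48 h and 41.4 and 37.7 at 72 h, and the *Id2* and *Id4* segments are the ones that are thinner with butyrate at both times.

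Over all 10 genes, *Id1* had the highest mean level on the same per-length scale, at 23.0 over the 4 libraries (18.1 to 28.5), followed by *Bmpr1a* at 19.7 (17.4 to 21.5). *Id2* followed at 11.8 (5.93 to 15.7), *Id3* at 5.90 (4.71 to 7.06), *Bmp2* at 3.88 (2.71 to 5.75) and *Smad7* at 3.46 (2.71 to 4.32). *Bambi* at 1.28 (0.68 to 1.87), *Smad6* at 1.19 (1.03 to 1.33), *Id4* at 0.77 (0.14 to 1.41) and *Bmp4* at 0.21 (0.10 to 0.36) were the lowest. Neighbours in this order overlapped in range over the 4 libraries, except for *Bmpr1a* with *Id2* and *Smad7* with *Bambi*. Compared within each library, *Id2* also stood above *Id3*, and *Id3* above *Bmp2*, in every library. Annotated exon length need not be the length of the transcripts made in these cells.

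Among the feedback inhibitors, *Bambi* had the largest decrease at 48 h, and *Smad7* at 72 h. *Bambi* encodes a receptor-like protein without a kinase domain that takes part in receptor complexes and blocks them. *Bambi* had 205 counts untreated against 84 treated at 48 h, and 179 against 114 at 72 h. Both butyrate libraries were lower, with log2 fold changes of −1.45 (−1.84 to −1.09) at 48 h and −0.52 (−0.87 to −0.17) at 72 h. Over the 4 libraries the gene of the 10 with the pattern most like that of *Bambi* was *Id2*, with a root mean square distance of 0.21 between their centred log2 normalised counts.

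*Smad7*, an inhibitory Smad that blocks both the BMP and the TGF-β branch, changed more at the later time. It had 356 counts untreated against 344 treated at 48 h, and 460 against 255 at 72 h. The log2 fold change came to −0.22 at 48 h, with an interval that barely excluded 0 (−0.44 to −0.0041) and held it with total count scaling (−0.43 to 0.0018), and −0.72 (−0.95 to −0.50) at 72 h. *Smad6*, the inhibitory Smad with a preference for the BMP branch, had 84 counts against 103 at 48 h, and 78 against 79 at 72 h. Its log2 fold changes were 0.12 (−0.31 to 0.55) and 0.15 (−0.32 to 0.62), and no difference could be detected at these counts. The inhibitory Smads were thus apart at 72 h, where their intervals did not overlap. *Smad6* lies on chromosome 9 from 63953076 to 64022059 on the minus strand. With *Bambi* and these 2 Smads, 11 intracellular inhibitors of Smad signalling were listed and tested, so 3 of the 11 are counted above already. At 48 h, 7 were lower and 1 higher, and at 72 h 5 were lower and 1 higher, with medians of −0.10 and −0.084. The shares of all tested genes were 31.3% lower and 29.3% higher at 48 h, and 26.4% and 25.9% at 72 h.

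*Bmp2*, a ligand which the colonic epithelium itself makes, had 325 counts untreated against 233 treated at 48 h, and 482 against 208 at 72 h. Both butyrate libraries were below both untreated libraries, with log2 fold changes of −0.65 (−0.90 to −0.41) at 48 h and −1.08 (−1.32 to −0.85) at 72 h. *Bmp4*, in the intestine a ligand made largely by mesenchymal cells, had 5 counts untreated against 15 treated at 48 h, and 6 against 17 at 72 h. Its log2 fold changes were 1.26 (−0.12 to 3.23) and 1.48 (0.22 to 3.26), on so few counts that the size of the change was poorly fixed. Since it passed the filter only through the libraries in which it was high, nothing is read from its direction. The fibroblast genes *Col3a1*, *Lum* and *Col1a2* stood at or near 0 in all libraries, and *Col1a1* had 0 to 12 counts. *Pdgfra* had 9 to 13 counts, about as many as *Bmp4*, and *Thy1* had 119 to 149. *Vim* was at 0.47 (0.076 to 0.87) at 48 h and −0.013 (−0.39 to 0.36) at 72 h, and *Pdgfrb* at −0.40 (−0.90 to 0.078) and −0.79 (−1.30 to −0.32). The summed level of the 12 fibroblast and smooth muscle markers did not separate the treatments, and their part in the level of *Bmp4* was not tested. *Bmp2* lies on chromosome 2 from 133552159 to 133562885 on the plus strand, and *Bmp4* on chromosome 14 from 46383520 to 46390669 on the minus strand.

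*Bmpr1a*, the type I receptor through which BMP2 and BMP4 signal, was the most deeply counted of the 10 genes. It had 2753 counts untreated against 2669 treated at 48 h, and 2971 against 2843 at 72 h. The log2 fold change of −0.22 (−0.29 to −0.14) at 48 h excluded 0, a difference of −14.0% from the untreated level. At 72 h it was 0.07 (−0.0088 to 0.14), and 0.12 (0.043 to 0.19) with total count scaling, under which *Bmpr1a* would count as higher. The gene lies on chromosome 14 from 34410734 to 34503341 on the minus strand, where the antisense RNA *Gm17110*, which had no row in the table, overlaps its exons.

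**Figure D4:**
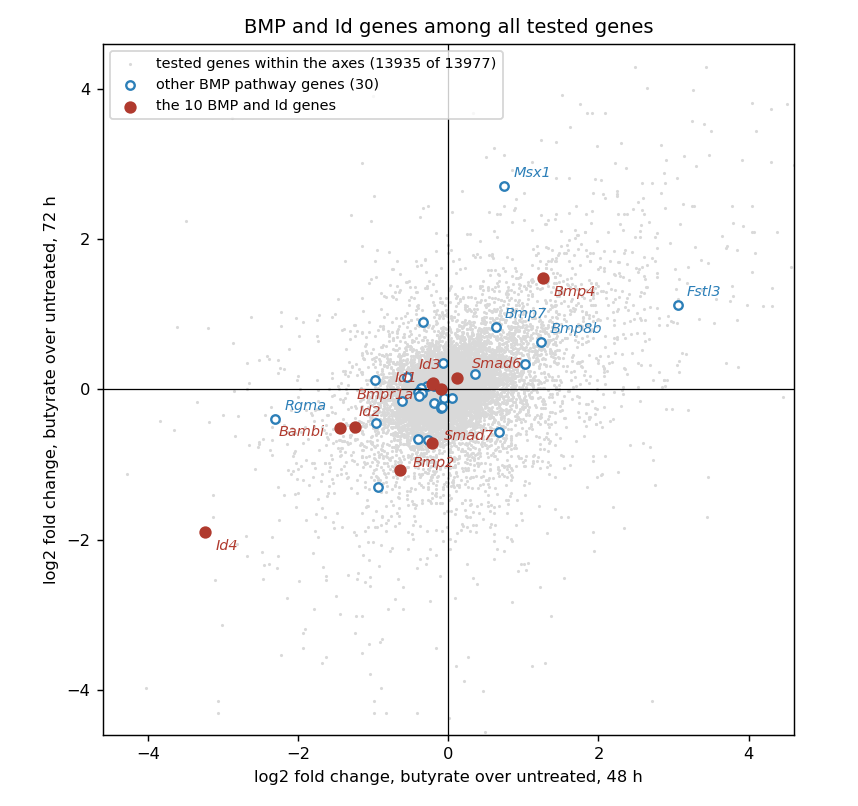
log2 fold change of butyrate over untreated at 48 h (horizontal axis) against 72 h (vertical axis) for the tested genes within the axes (grey), 30 other BMP pathway genes (blue rings) and the 10 BMP and Id genes (red). *Id4* lies far to the lower left at −3.24 and −1.90, *Bmp4* to the upper right, and *Id1*, *Id3*, *Smad6* and *Bmpr1a* near the origin.

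The size of the butyrate difference was compared between the time points. The change from 48 h to 72 h in the log2 fold change had a counting interval excluding 0 in 6 of the 10 genes, which was not set against any replicate error. It lay above 0 in 4 of them, as in 24.4% of all tested genes, and below 0 in 2, as in 23.8%. The decrease was smaller at 72 h in *Id4*, by 1.34 (0.30 to 2.56) on the log2 scale, in *Bambi* by 0.93 (0.42 to 1.46) and in *Id2* by 0.73 (0.49 to 0.98). *Bmpr1a* moved in the same sense by 0.28 (0.18 to 0.39). In *Smad7* and *Bmp2* the difference went the other way, at −0.50 (−0.82 to −0.18) and −0.43 (−0.78 to −0.083).

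Between the untreated libraries, none of the 10 genes differed 2-fold from 48 h to 72 h, a change that 4.49% of tested genes showed in either direction. *Id1* was lower at 72 h, with a log2 change of −0.58 (−0.75 to −0.41), and *Bmp2* was higher by 0.52 (0.31 to 0.73). *Smad7*, *Id3* and *Id2* were higher by 0.32 (0.12 to 0.52), 0.34 (0.071 to 0.60) and 0.25 (0.11 to 0.39). Between the butyrate libraries, *Id4* was more than 2-fold higher at 72 h, at 1.18 (0.24 to 2.34), a size of change seen in 8.62% of tested genes. This rested on 13 and 26 counts, and with a pseudocount of 5 the value was 0.98, below 2-fold. *Id2* was higher by 0.98 (0.79 to 1.18), *Bambi* by 0.68 (0.27 to 1.12) and *Id3* by 0.62 (0.35 to 0.89). *Id1* was lower with time in the butyrate libraries too, at −0.48 (−0.65 to −0.31). The time-dependent decrease of *Id1* was thus of similar size in both treatments, and the change in its butyrate fold between the times was 0.10 (−0.14 to 0.34).

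The rest of the pathway was read from lists of genes by role. Of 53 further BMP genes, 30 passed the count filter. At 48 h, 14 of these 30 were lower and 6 higher, and at 72 h 6 were lower and 8 higher, with medians of −0.19 and −0.045. The 8 include *Msx1*, which passed the filter only through the butyrate libraries. Of all tested genes, 31.3% were lower and 29.3% higher at 48 h, and 26.4% and 25.9% at 72 h, so the counts at 72 h were near the background.

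The other ligands split in direction. Of 13 listed ligand genes, 7 were tested, with *Bmp2* and *Bmp4* among them. Of the rest, 5 had no count in any library, and *Bmp5* had at most 2. *Bmp3*, an atypical BMP that opposes the others, had 996 counts untreated against 586 treated at 48 h, and 1985 against 735 at 72 h, so that its log2 fold changes were −0.94 (−1.09 to −0.79) and −1.30 (−1.43 to −1.18). *Bmp8b* had 364 against 970 counts, and 492 against 696, with log2 fold changes of 1.24 (1.07 to 1.42) and 0.63 (0.46 to 0.80). *Bmp7* had 221 against 386 counts, and 236 against 386, with log2 fold changes of 0.63 (0.39 to 0.88) and 0.84 (0.60 to 1.08). *Bmp2* and *Bmp3* were thus lower at both times while *Bmp7* and *Bmp8b* were higher at both. The list's medians, −0.40 and −0.45, were the values of *Bmp6* at 48 h and *Bmp8a* at 72 h. Their intervals held 0 (−1.81 to 0.90, and −0.99 to 0.069).

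Of 11 receptor and co-receptor genes, 7 were tested, among them *Bmpr1a*, which is counted above already. At 48 h, 4 of the 7 were lower and none was higher, and at 72 h 1 was lower and 3 were higher. The shares of all tested genes were again 31.3% and 29.3%, and 26.4% and 25.9%. The list's medians, −0.22 and 0.066, were the values of *Bmpr1a* itself. The type II receptor gene *Acvr2b* had 142 counts untreated against 126 treated at 48 h, and 66 against 113 at 72 h, with log2 fold changes of −0.34 (−0.70 to 0.011) and 0.89 (0.45 to 1.37). *Rgma*, a BMP co-receptor, had 87 against 19 counts, and 85 against 59, with −2.30 (−3.17 to −1.64) and −0.39 (−0.90 to 0.099). Among the 4 Smads of the pathway, the common partner *Smad4* was at −0.37 (−0.45 to −0.28) and 0.024 (−0.060 to 0.11). *Smad9*, with 13 to 21 counts, was at −0.62 (−1.72 to 0.37) and −0.16 (−1.35 to 0.98). *Smad5*, named after its values were seen, was at −0.29 (−0.39 to −0.19) and 0.042 (−0.073 to 0.16). Of the 4 Smads, 2 were lower and none was higher at 48 h, and none was lower or higher at 72 h, with medians of −0.33 and −0.046.

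Most secreted antagonists had few or no counts. Of 15 listed genes, 9 had under 10 counts in every library, among them *Nog*, which encodes Noggin itself, with at most 4 counts and *Grem1* with at most 1. Of the 5 that were tested, 3 were higher and 1 lower at 48 h, and 1 was higher and 1 lower at 72 h. Over all tested genes these shares were 29.3% and 31.3%, and 25.9% and 26.4%, and 1 of 5 in either direction is near the latter. *Fstl3*, which binds activins and some BMPs, had 26 counts untreated against 252 treated at 48 h, and 34 against 69 at 72 h. Its log2 fold changes were 3.06 (2.52 to 3.75) and 1.13 (0.54 to 1.79). *Nbl1*, a DAN family antagonist, had 68 against 156 counts, and 71 against 82, with log2 fold changes of 1.01 (0.61 to 1.46) and 0.33 (−0.14 to 0.82).

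Of 12 listed BMP target genes, 7 of them among the 10 genes above, 9 were tested. At 48 h, 5 were lower and none was higher (31.3% and 29.3% of all tested genes), and at 72 h 4 were lower (26.4%). Only *Msx1* had an interval above 0 at 72 h. The medians were −0.22 at 48 h and 0.0076 at 72 h, and −0.59 and −0.25 among genes with a mean of 50 or more. *Msx1*, a homeobox gene induced by BMP in many tissues, had 7 counts untreated against 14 treated at 48 h, and 2 against 17 at 72 h. Like *Bmp4*, it passed the filter only through the butyrate libraries, so nothing is read from its direction. Its intervals were −0.58 to 2.38 and 1.14 to 6.37. The E proteins, the partners that Id proteins capture, were each slightly lower at 48 h. *Tcf12* was at −0.37 (−0.46 to −0.29) and 0.035 (−0.044 to 0.11), and *Tcf4* at −0.18 (−0.34 to −0.029) and 0.31 (0.18 to 0.45).

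Genes with the most similar pattern were sought over the 4 libraries, among 10786 others whose mean normalised count reached 100, by the root mean square distance between centred log2 normalised counts. Nearest to *Id1* were *Gsap* (0.013), *Bcl6* (0.018), *Parp11* (0.024) and *Fastkd3* (0.036). Nearest to *Id3* were *Siah1b* (0.0075), *Rbm33* (0.019), *Brd2* (0.020), *Ptpn23* (0.021) and *Bicra* (0.028). Nearest to *Id2* were *Dsel* (0.048), *Insm1* (0.066), *Thbs1* (0.068), *Ccdc149* (0.079) and *Sirt1* (0.079). *Insm1*, an enteroendocrine transcription factor, had normalised counts of 340.5 untreated against 129.7 treated at 48 h, and 363 against 256 at 72 h. For *Id4*, searched after its values were seen and among 11647 genes with a mean of at least 50, the nearest genes were farther away. They were the defensin genes *Defa17* (0.20) and *Defa3* (0.38), whose counts depend on how reads were shared among near-identical family members, and *Il1r1* (0.45). With 4 libraries many genes share any one pattern. None of the 10 genes was among the 5 nearest to *Id1*, *Id2*, *Id3* or *Id4*.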

How the data were processed

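Poly-A RNA libraries of 4 organoid cultures were analysed. The authors deposited whole-number counts per gene. They had quantified transcripts by pseudoalignment (kallisto) and used tximport to sum them per gene, so the counts are rounded estimates, and no gene filter had been applied. The submitters' processing notes name kallisto 0.44.0 and GRCm38.p6. In the table, 26 gene names had become calendar dates.

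As in the study's methods, rows were kept if over 10 counts were reached in 2 or more libraries, and scaled with DESeq2 1.42.0 size factors (R 4.3.3), which were 0.926 to 1.10. The remaining steps used Python 3.11.15 with numpy 2.4.6, pandas 2.3.3 and scipy 1.17.1, and figures matplotlib 3.10.9. Ratios of 2 counts were given exact Clopper-Pearson intervals, and differences between ratios the exact conditional interval of the odds ratio. The reads carried no molecular identifiers and need not be independent molecules, so intervals cover counting error only. The steps were tested on simulated data. Positions and exon lengths came from GENCODE vM21 on GRCm38. In a search of its transcripts with at least 95% identity over at least 100 bases, the only matches of the 10 genes to other genes were antisense RNAs over *Id4* and *Bmpr1a*.

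The 10 genes, the lists and the comparisons were chosen with earlier results of these data known. From each list, genes that changed at least 1.5-fold the same way at both times were named, and in any case the 2 with the largest mean change. Some genes that these rules name are not reported here. The alternatives tried were TMM scaling (edgeR 4.0.16), scaling to the total count with and without mitochondrial genes, a pseudocount of 5, no filter, and a mean normalised count of 50 or more.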

Additional observations from a re-analysis of the deposited data

Results flagged for a closer look

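In 4 of the 52 tested genes of the BMP, E protein and TGF-β lists the butyrate difference had opposite signs at the 2 times, each with a counting interval that excluded 0, as in 9.86% of all tested genes. The difference between the times was itself not tested against replicate error. None of the 10 BMP and Id genes was among them, while 6 of the 9 epithelial markers also had opposite signs by this rule. *Rgmb*, a BMP co-receptor, had log2 fold changes of −0.56 (−0.64 to −0.47) at 48 h and 0.17 (0.062 to 0.27) at 72 h, while its change from 48 h to 72 h was −0.95 (−1.04 to −0.86) in untreated and −0.23 (−0.32 to −0.13) in butyrate cultures. The E protein genes *Tcf3* and *Tcf4* were at −0.26 and 0.19, and at −0.18 and 0.31. *Smad3*, a Smad of the TGF-β branch, was at −0.14 (−0.26 to −0.012) and 0.21 (0.097 to 0.33). All 4 kept both signs under each of the 6 alternatives. *Rgmb*, *Tcf3* and *Smad3* were named after their values were seen.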

How the results depend on the processing

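No paired analysis was possible because the groups compared hold 1 library each, so replicate numbers paired nothing, and a fit that takes the times as replicates was not run. Of 295 recomputed values of the 10 genes, 294 moved by less than their counting interval. The exception was the change of *Bmpr1a* between the untreated libraries, 0.059 and −0.019 with total count scaling. *Bmp4* could not be recomputed at a mean normalised count of 50 or more, which it does not reach. Through *Bmp4*, the number of genes 2-fold or more higher went from 1 to 0 at 48 h and to 0 at both times with a pseudocount of 5, and to 0 at 48 h, 72 h and both under that filter. The numbers 2-fold or more lower were the same under each alternative. These numbers are of butyrate over untreated. Between the butyrate libraries, the 2-fold change of *Id4* was lost with a pseudocount of 5 (0.98). The number higher at 72 h by its interval, 1, was 2 with either total count scaling (*Bmpr1a* was added) and 0 under the filter on the mean. *Smad7* at 48 h no longer excluded 0 with total count scaling and under that filter. With each of these, 5 and not 6 genes were lower at 48 h, and 4 and not 5 at both times. Of 96 list medians, 92 stayed between the medians of their genes' interval bounds. The others were the secreted antagonists with no filter (0 at 48 h and −0.49 at 72 h), the BMP targets at 48 h under the filter on the mean (−0.59), and the TGF-β branch at 48 h with no filter (0.60). The median of all tested genes at 72 h was 0.0022, and 0.054 with total count scaling. The main limits are the single library per condition and the few counts of *Bmp4*, *Msx1* and *Smad9*.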

Other observations

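The neighbouring TGF-β and activin branch, which signals through Smad2 and Smad3, had 9 of 13 listed genes tested. At 48 h, 4 were lower and 3 higher with butyrate, and at 72 h 2 were lower and 3 higher, with medians of 0.032 and 0.18. The shares of all tested genes were 31.3% lower and 29.3% higher at 48 h, and 26.4% and 25.9% at 72 h. The ligand gene *Tgfb2* had 7 counts untreated against 17 treated at 48 h, and 12 against 18 at 72 h, with log2 fold changes of 1.01 (−0.24 to 2.62) and 0.67 (−0.42 to 1.90). Named after their values were seen, the ligand gene *Tgfb1* was at 1.08 (0.82 to 1.36) and 0.18 (−0.11 to 0.46), and the receptor genes *Tgfbr1* and *Tgfbr2* moved apart. *Tgfbr1* was at −0.71 (−0.85 to −0.58) and −0.32 (−0.44 to −0.20), and *Tgfbr2* at 0.43 (0.37 to 0.48) and 0.39 (0.34 to 0.45).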
